A study of Homo sapiens with 12 samples.

Results

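Ribosome footprints were set against RNA along the nonoptimal firefly luciferase reporter, in Ribo-seq and RNA-seq libraries that the series' text calls paired. The comparison used 6 of the 12 libraries of the series: 3 Ribo-seq and 3 RNA-seq libraries from HEK293T cells (a human embryonic kidney cell line, genotype WT) that had received SM-nonopt FLuc-GFP together with a Renilla luciferase plasmid. Cells were harvested 24 hours after lipofectamine transfection and exposed for a short time to cycloheximide, a drug that stalls elongating ribosomes. The other 6 libraries came from cells given SM-opt FLuc-GFP and the same Renilla plasmid, and served only to show where the nonoptimal reporter differed. Each Ribo-seq library was paired with the RNA-seq library of the same number. All values came from plasmids in 1 cell line, and nothing in the labels says that the replicates were separate cultures, so the p-values measure the spread between these libraries.

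A ribosome shields a short stretch of mRNA from nuclease, so sequenced footprints report where ribosomes were. Their density at a position rises with the number of ribosomes that reach it and with the time each one spends there. The paired RNA-seq library gives the template that was available, and dividing one by the other sets footprints against it. Unevenness that only the RNA-seq has stays in the ratio, which also depends on how its reads are placed. Synonymous codons encode the same amino acid, but those read by scarce tRNAs tend to be decoded slowly, and mRNAs rich in such nonoptimal codons tend to be poorly translated and short-lived.

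The nonoptimal reading frame had 1127 codons, at positions 3393 to 6773 of its plasmid map. SM covered codons 1 to 337, the recoded firefly luciferase (FLuc, the light-producing enzyme of the firefly) codons 338 to 886, and GFP (green fluorescent protein) codons 887 to 1127. It was read in 57 windows: 56 of 20 codons (60 nt) and a last one of the remaining 7 codons. Sense footprints of 27 to 30 nt in the frame numbered 822, 1345 and 285 in replicates 1, 2 and 3, and RNA-seq alignments 10725, 7430 and 4704. The median full window held 11, 17 and 4 footprints, so replicate 3 was the least precise. A share is the percentage of a library's frame alignments that fell in a window or segment, so a share that goes up must be matched by others that go down. Even coverage would put 1.77% in each full window.

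Footprints were shifted toward the start of the frame relative to RNA. They were over-represented on SM and under-represented on GFP, while the log2 ratio of FLuc as a whole was near 0 over the full frame and 0.10 without its ends. SM held 38.6%, 39.5% and 44.9% of the footprints in replicates 1, 2 and 3, against 33.1%, 33.2% and 35.5% of the RNA-seq alignments. Every Ribo-seq value was above every RNA-seq value. The mean paired log2 ratio of footprint share to RNA share was 0.27 (SE 0.036, n = 3 pairs), or 1.21-fold, and positive in 3 of 3 pairs. An exact two-sided sign-flip permutation test gave p = 0.25, the smallest that 3 pairs allow, and 0.39 after Benjamini-Hochberg adjustment over the 11 single-value comparisons. Without 25 codons at each end of the frame the SM ratio was 0.13.

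GFP held 16.3%, 17.1% and 15.4% of the footprints and 23.2%, 24.0% and 23.5% of the RNA. Here the 3 Ribo-seq values lay below the 3 RNA-seq values without overlap. The log2 ratio was -0.54 (SE 0.036, n = 3 pairs, negative in 3 of 3; exact permutation p = 0.25, adjusted 0.39), a footprint share 0.689 times the RNA share. FLuc held 45.1%, 43.4% and 39.6% of the footprints and 43.7%, 42.7% and 41.0% of the RNA. These ranges overlapped, with 2 pairs above 0 and 1 below, and the log2 ratio was 0.0071 (SE 0.029, n = 3 pairs; exact permutation p = 1). Without 25 codons at each end of the frame the FLuc ratio was 0.10 (SE 0.011; exact permutation p = 0.25, the smallest possible), and with a pseudocount of 2 it was 0.043 (SE 0.0081).

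**Figure D1:**
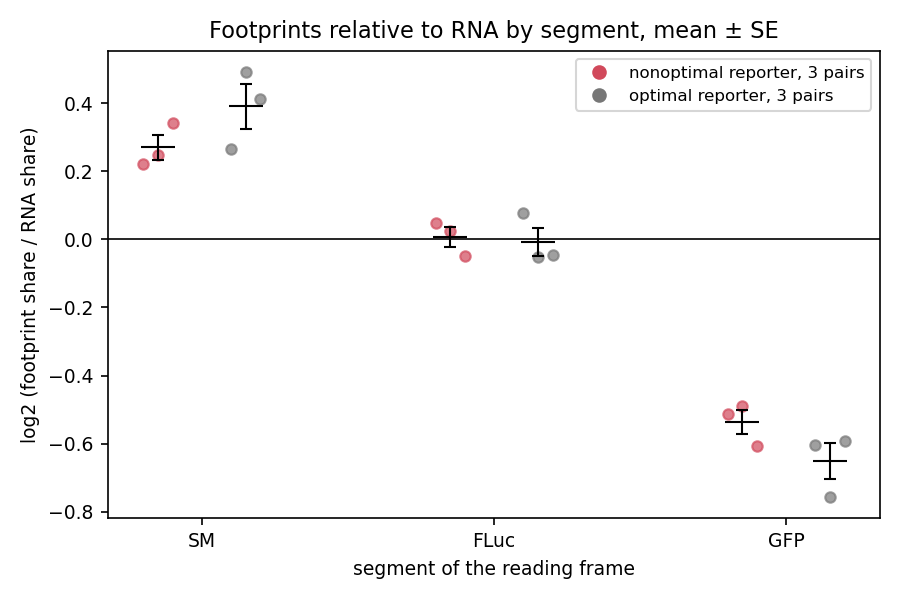
Log2 ratio of footprint share to RNA share (vertical axis) in SM, FLuc and GFP for the nonoptimal and, for comparison, the optimal reporter; dots are the 3 pairs and bars the mean ± SE. In both reporters all SM pairs lie above 0, all GFP pairs below 0, and the FLuc pairs on both sides of it.

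The mean codon of the footprints was 508, 509 and 463 in the 3 replicates, and that of the RNA 553, 560 and 545. The mean paired difference was -59.4 codons (SE 11.6, n = 3 pairs, earlier in 3 of 3; exact permutation p = 0.25, adjusted 0.39), toward the start. The median footprint lay at codon 489, 492 and 400, and the median RNA alignment at codon 544, 558 and 529. Without 25 codons at each end the difference in mean codon was -25.6, in the same direction. Inside the segments the difference in mean codon was -7.56 (SE 8.76) in SM, 7.75 (SE 3.98) in FLuc and 6.62 (SE 4.58) in GFP, with adjusted exact permutation p from 0.39 to 1. Pair 3 alone made the SM value negative, and without it the SM value was 1.2 and the GFP value 2.08.

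**Figure D2:**
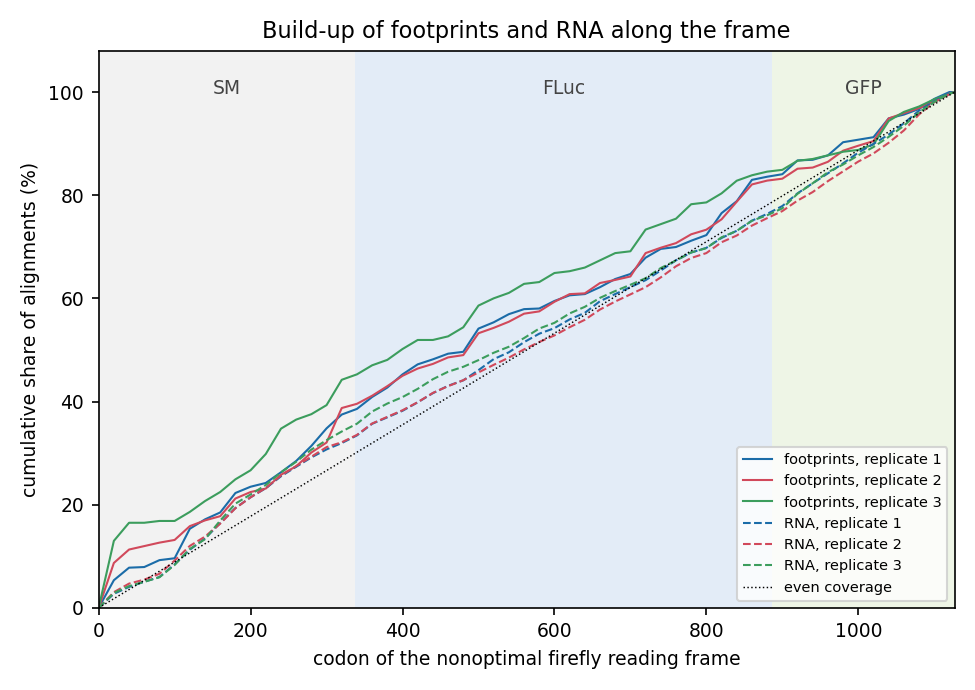
Cumulative share of alignments (%) along the 1127 codons for the 3 Ribo-seq (solid) and 3 RNA-seq (dashed) libraries; the dotted diagonal is even coverage. The solid lines run above the dashed ones through FLuc, replicates 1 and 2 come close to or cross them within SM, and the gap closes in GFP.

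Single windows departed from RNA far more than whole segments did. In limma's moderated test on the paired log2 ratios, 21 of 57 windows (36.8%) had a Benjamini-Hochberg adjusted p under 0.05. The footprint share was higher in 7 (12.3%) and lower in 14 (24.6%). SM held 3 higher and 3 lower among its 16 windows, FLuc 3 and 4 among 27, and GFP 1 and 6 among 12. The window across the FLuc-GFP border was lower, and that across the SM-FLuc border did not pass. The median log2 ratio was -0.016 in SM, -0.32 in FLuc and -0.99 in GFP, against -0.33 over all 57 windows. Together the 7 higher windows, 140 codons, held 24.1%, 34.6% and 36.8% of the footprints on 11.8%, 11.9% and 11.7% of the RNA. The 14 lower windows, 280 codons, held 7.79%, 9.96% and 9.47% of the footprints on 26.9%, 26.8% and 26.9% of the RNA. These sums describe windows picked by the same ratio and are no test.

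The number of calls depended on the libraries and on how reads were placed. All 21 kept their direction, and 14, 8 and 16 of them passed, when pair 1, 2 or 3 was left out. Limma's SE was then the same in all 21 without pair 1 (0.49) or pair 3 (0.43), and nearly so without pair 2. The p-values without a pair thus reflect a spread shared by all windows, not that of the single window. Restricting footprints to 28 to 29 nt kept all 21 directions but left 3 calls, windows 5, 29 and 47. With footprints placed at the 5′ end itself 11 of the 21 passed, and with RNA placed by the 5′ end of the transcript-strand mate 12.

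**Figure D3:**
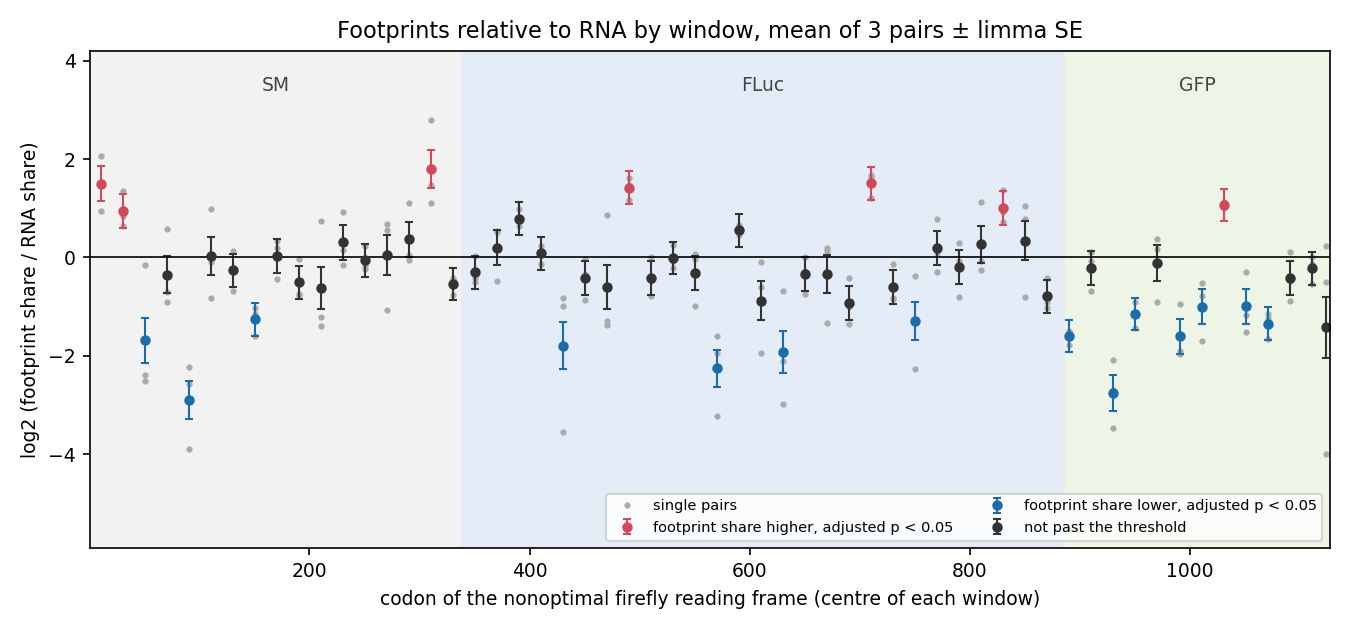
Log2 ratio of footprint share to RNA share (vertical axis) by codon position of the window centre; large dots are means of 3 pairs with the limma SE, small dots single pairs, red and blue the 7 higher and 14 lower windows. Blue windows are most frequent in GFP, where 6 of 12 are lower, and the red windows are spread over the frame, with 3 each in SM and FLuc.

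The first window carried the largest mean footprint share, and the largest share in replicates 2 and 3, while in replicate 1 window 6 held more (5.72%). Window 1 (codons 1 to 20, map positions 3393 to 3452), which ribosomes enter straight from initiation, held 44, 117 and 37 footprints, or 5.35%, 8.70% and 13.0% of the frame, and 2.71%, 3.04% and 2.89% of the RNA. All 3 Ribo-seq values were above all RNA-seq values, and they also differed widely among themselves. The log2 ratio was 1.50 (limma SE 0.35, adjusted p = 0.0058), or 2.83-fold. The RNA part depends on how reads are placed: counted by the 5′ end of the transcript-strand mate the ratio was 2.85, and it was 2.0 from per-nucleotide depth. With 28 to 29 nt footprints it was 1.51, with an adjusted limma p of 0.058. Window 2 (codons 21 to 40) followed at 2.43%, 2.6% and 3.51% of footprints on 1.34%, 1.66% and 1.32% of RNA (log2 0.94, limma adjusted p = 0.045). It is the smallest of the 21 calls, and it did not pass without pair 1, 2 or 3 (limma adjusted p = 0.14, 0.14 and 0.19).

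After this rise came a trough. Window 5 (codons 81 to 100, positions 3633 to 3692) held 3, 7 and 0 footprints, or 0.365%, 0.520% and 0% of the frame, on 2.46%, 2.57% and 2.38% of RNA. The 0 of 285 footprints in replicate 3 allows a share of up to 1.05%, still under its RNA share. The log2 ratio of -2.90 (limma SE 0.39, adjusted p = 0.00016) was the lowest of all windows, and it passed under every alternative tried on windows of 20 codons. Window 8 (codons 141 to 160) was also lower (log2 -1.25, limma adjusted p = 0.011), but not without pair 2 (0.14).

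Window 3 (codons 41 to 60) needs its fragment lengths beside it. It held 1, 9 and 0 footprints of 27 to 30 nt and was lower than RNA (log2 -1.69, limma SE 0.45, adjusted p = 0.011). The RNA share was itself low, at 1.01%, 0.767% and 0.829%, and in replicate 3 a count of 0 does not exclude that value. The same window held 16, 25 and 27 sense Ribo-seq alignments of other lengths, of which 13, 24 and 26 were 18 nt, the shortest in the files. In replicate 3 they were 49.1% of all other-length alignments in the frame. With all lengths counted, the log2 ratio of window 3 was 1.76 (limma adjusted p = 0.025), the opposite direction. Whether these fragments came from ribosomes was not tested.

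SM ended with another rise. Window 16 (codons 301 to 320, positions 4293 to 4352) held 22, 90 and 14 footprints, that is 2.68%, 6.69% and 4.91% of the frame on 1.23%, 0.942% and 1.68% of RNA. Its log2 ratio of 1.79 (limma SE 0.39, adjusted p = 0.0045), or 3.46-fold, was the highest of all windows with RNA placed by midpoints. With RNA placed by the 5′ end of the transcript-strand mate it was 0.98 (limma adjusted p = 0.068), and from per-nucleotide depth 1.45, both below window 1. Replicate 2 stood above the others, and without that pair the ratio was 1.28 with an adjusted limma p of 0.085. Window 17, across the border into the recoded codons, held 1.09%, 0.818% and 1.05% of footprints on 1.48%, 1.43% and 1.51% of RNA. Its log2 ratio of -0.54 did not pass (limma adjusted p = 0.25).

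FLuc, the segment recoded with nonoptimal codons, held 3 higher and 4 lower windows, none next to another. Window 25 (codons 481 to 500, positions 4833 to 4892) held 37, 57 and 12 footprints, or 4.50%, 4.24% and 4.21% of the frame, on 1.98%, 1.51% and 1.30% of RNA. The 3 libraries lay close together, with an SD of 0.161 percentage points. The log2 ratio was 1.42 (limma SE 0.33, adjusted p = 0.0058), or 2.67-fold. Window 36 (codons 701 to 720, positions 5493 to 5552) was alike, with 3.16%, 4.54% and 4.21% of footprints on 1.35%, 1.40% and 1.28% of RNA. Its log2 ratio was 1.51 (limma SE 0.33, adjusted p = 0.0045), a 2.84-fold difference. Without pair 2 neither passed (limma adjusted p = 0.064 for both), and with RNA placed by the 5′ end window 36 fell to 0.62. The third, window 42 (codons 821 to 840), had a log2 ratio of 1.01 (limma adjusted p = 0.035) and did not pass without pair 1, 2 or 3 (0.076, 0.31 and 0.055).

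The deepest trough of FLuc was window 29 (codons 561 to 580, positions 5073 to 5132), with 1, 6 and 1 footprints. These were 0.122%, 0.446% and 0.351% of the frame on 1.64%, 1.43% and 1.85% of RNA, and no Ribo-seq value reached an RNA-seq value. The log2 ratio was -2.25 (limma SE 0.38, adjusted p = 0.0012). Window 32 (codons 621 to 640) held 2, 2 and 2 footprints, or 0.243%, 0.149% and 0.702% of the frame, on 1.27%, 1.44% and 1.28% of RNA. Its log2 ratio was -1.92 (limma adjusted p = 0.0045). Windows 22 and 38 were lower by less or less evenly, with log2 ratios of -1.79 and -1.29. Window 22 held 8, 12 and 0 footprints, with pair ratios of -0.83, -0.99 and -3.55. The last depends on the pseudocount, and the mean was -1.18 with a pseudocount of 2 and -2.55 with 0.1 (limma adjusted p = 0.0038 and 0.097). The 0 of 285 footprints allows a share of up to 1.05%, under the RNA share of 1.87%. Without pair 2 windows 32 and 38 did not pass (limma adjusted p = 0.064 and 0.085), window 38 did not without pair 1 either (0.26), and window 22 did not without pair 3 (0.091). Window 22 also did not pass in the fit with no replicate block (limma adjusted p = 0.065), and window 38 was -0.081 with footprints at the 5′ end itself.

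Past FLuc the frame was mostly under-occupied. The border window 45 (codons 881 to 900) held 0.487%, 0.372% and 0.351% of footprints on 1.52%, 1.37% and 1.34% of RNA (log2 -1.60, limma SE 0.33, adjusted p = 0.0045). With footprints placed at the 5′ end itself its ratio was -0.55 and did not pass (limma adjusted p = 0.18). Window 47 (codons 921 to 940, positions 6153 to 6212) held 1, 3 and 1 footprints, or 0.122%, 0.223% and 0.351% of the frame, on 1.96%, 1.66% and 2.04% of RNA. Its log2 ratio of -2.75 (limma SE 0.36, adjusted p = 0.00016) was close to the lowest, and it passed under every alternative that tested it. The other lower GFP windows were 48, 50, 51, 53 and 54, with log2 ratios from -1.60 to -0.99. Of these only window 50 passed without pair 2; the adjusted limma p of the rest was then between 0.085 and 0.27. Windows 48, 51 and 53 also failed without pair 1 (0.076, 0.39 and 0.34), and window 48 without pair 3 (0.059). With footprints at the 5′ end itself windows 51 and 53 were 0.18 and -0.22, and with RNA placed by 5′ ends window 54 was -0.49.

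One GFP window went the other way. Window 52 (codons 1021 to 1040, positions 6453 to 6512) held 30, 59 and 13 footprints, or 3.65%, 4.39% and 4.56% of the frame, on 1.80%, 2.07% and 1.98% of RNA. The log2 ratio was 1.06 (limma SE 0.33, adjusted p = 0.023), but it did not pass without pair 1, 2 or 3 (0.095, 0.15 and 0.056). It was 0.49 with footprints at the 5′ end itself and 0.47 with RNA placed by 5′ ends, and passed with neither. At the end of the frame, where ribosomes terminate, no rise was detected. Window 56, the last full one, held 1.34%, 1.56% and 1.05% of footprints on 1.48%, 1.55% and 1.62% of RNA (log2 -0.22, limma adjusted p = 0.65). The last 7 codons held 0, 4 and 1 footprints and did not pass (log2 -1.42, limma SE 0.62, adjusted p = 0.088). That value depended on the pairs used, which were far apart at -3.99, -0.50 and 0.23. It was -0.14 without pair 1, and passed without pair 2 (-1.88, limma adjusted p = 0.015) and without pair 3 (-2.25, limma adjusted p = 3.3e-05). Those p-values rest on a spread shared by all windows, not on that of this one. The last 7 codons also passed with footprints at the 5′ end itself (-2.64, limma adjusted p = 0.012) and from per-nucleotide depth (-2.22, limma adjusted p = 0.032). A count of 0 of 822 in replicate 1 allows up to 0.365%, and the RNA share there was 0.326%.

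**Figure D4:**
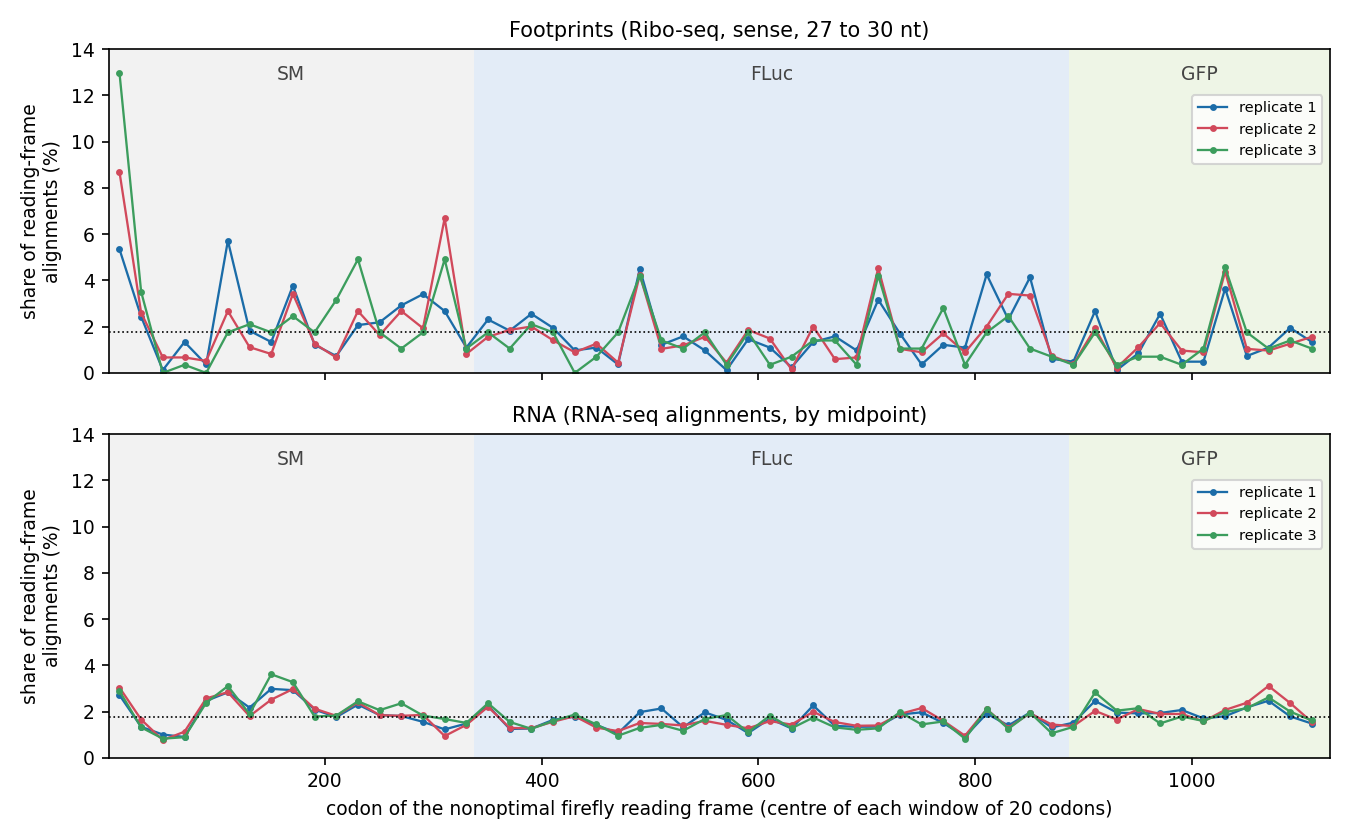
Share of reading-frame alignments (%) in each full window of 20 codons against codon position, for the 3 footprint libraries (upper panel) and the 3 RNA libraries (lower panel) on the same scale; the dotted line is the even share of 1.77%. Footprint peaks at windows 1, 25, 36 and 52 recur in all 3 libraries, while the RNA lines stay below 4%.

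Footprints were spread far less evenly than RNA. The squared coefficient of variation over the 56 full windows, after the part due to counting was taken off, was 0.485, 0.725 and 1.0 for footprints and 0.0742, 0.0792 and 0.104 for RNA. The ranges were far apart. The paired difference was 0.65 (SE 0.14, n = 3 pairs, positive in 3 of 3; exact permutation p = 0.25, adjusted 0.39). It was 0.63 with RNA placed by 5′ ends, and 0.39 without 25 codons at each end. The optimal reporter was uneven too, with means of 0.51 for footprints and 0.078 for RNA. Its paired difference was 0.44 (SE 0.017). Over the full windows, Spearman's rho between the footprint shares of 2 nonoptimal libraries was 0.65 to 0.87, and between their RNA shares 0.82 to 0.88. Between a footprint and an RNA library it was 0.20 to 0.28. These are descriptions over 56 neighbouring windows that share a library and its depth.

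Several higher windows owed much of their share to 1 codon, defined by the footprint's 5′ end plus 12 nt. Most 5′ ends fell on the second codon position counted from the listed start, and the region list may be offset by 1 nt from the alignments, so single codon numbers, their positions and the ends of empty runs may be off by 1 codon. The 6 codons with the largest mean footprint share were 496, 7, 705, 316, 857 and 8. Codon 496 (positions 4878 to 4880) held 27, 29 and 5 of the 37, 57 and 12 footprints of window 25. Its share of the frame was 3.28%, 2.16% and 1.75%. Codon 705 (positions 5505 to 5507) held 8, 38 and 8 of the 26, 61 and 12 in window 36. Codon 316 (positions 4338 to 4340) held 2, 36 and 8 of the 22, 90 and 14 in window 16, with few in replicate 1. Codons 7 and 8, in window 1, held 6, 36 and 10 and 7, 18 and 8 footprints. Codon 857 held 22, 29 and 2, in window 43, which did not pass (log2 0.34). Every footprint in the frame carried a 12-base identifier in its read name, and 0 of 822, 1345 and 285 repeated another's ends and identifier. The 27, 29 and 5 footprints at codon 496 thus had as many different identifiers. Whether repeats had been removed before deposit is not given in the sources used here. If they had, the count of 0 was fixed in advance, so it says nothing about amplification.

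Stretches without footprints were the counterpart. Pooled over the 3 libraries and 2452 footprints, 522 of 1127 codons had none: 38.0% of SM, 48.8% of FLuc and 52.3% of GFP codons. The 4 longest empty runs all lay in FLuc, which has 48.7% of the codons. Only 1 codon shorter than the last of them, runs of 9 codons followed in SM (49 to 57) and GFP (928 to 936). The 4 longest were codons 874 to 885, 344 to 354, 472 to 482 and 560 to 569. They had 141, 257, 156 and 198 RNA-seq alignments centred in them. The optimal libraries, with 2042 footprints in the frame, had 30, 31, 12 and 12 footprints in the same codons. The runs were picked for holding no nonoptimal footprint, so this contrast is a description and no test. Over the whole frame the optimal libraries left more codons empty, 596, with 47.2% of SM, 53.6% of FLuc and 59.3% of GFP codons. Reads that match more than 1 place could be missing from the files, and whether this affects any empty run was not tested.

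Where the nonoptimal reporter differed from the optimal one was asked by testing the assay-by-reporter interaction in every window. The FLuc ratio differed by 0.014 on the log2 scale (SE 0.050; exact two-sided permutation test of 3 against 3 pairs, p = 0.9), less than its spread. The shift toward the start was -59.4 codons in the nonoptimal and -67.1 in the optimal reporter. The difference in shift, nonoptimal minus optimal, was 7.79 codons (SE 14.6; exact permutation p = 0.5), a smaller shift in the nonoptimal reporter. Without 25 codons at each end it was 32.1 codons (SE 8.51), again a smaller nonoptimal shift. The exact permutation p was then 0.1, the smallest that 3 against 3 allow. In single windows, 5 of 57 (8.77%) had an adjusted limma p under 0.05, 2 higher (3.51%) and 3 lower (5.26%) in the nonoptimal reporter. All 5 lay among the 27 windows of FLuc, the recoded segment. None of the 28 SM and GFP windows passed, where 1 had an unadjusted p under 0.05 against 8 in FLuc. The median size of the difference was 0.74 in FLuc and 0.41 in SM and GFP. The largest in SM and GFP was 1.76, in window 54 (limma SE 0.87, adjusted p = 0.28). That is larger in size than in windows 27, 30 and 44, which passed in FLuc with smaller SEs.

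Window 25, one of the main FLuc peaks above, differed most. In the optimal reporter it held 1.16%, 0.255% and 0.526% of footprints on 1.97%, 1.86% and 1.62% of RNA, a log2 ratio of -1.60 against 1.42 in the nonoptimal reporter. The difference was 3.02 (limma SE 0.50, adjusted p = 0.016). Codon 496, its densest codon, had 1, 0 and 0 footprints in the optimal libraries. Codon 705 had the same counts there, although window 36 was higher in footprints in both reporters. Codons 7, 316, 857 and 8 had 7, 13 and 3, then 4, 4 and 10, then 2, 6 and 5, and 4, 7 and 1. All were picked by their nonoptimal share, so this contrast is a description and no test. Window 32, a trough in the nonoptimal reporter, held 4.66%, 2.29% and 2.46% of optimal footprints, and the difference was -2.54 (limma SE 0.61, adjusted p = 0.045). Windows 27 and 44 were also lower in the nonoptimal reporter (-1.48 and -1.51) and window 30 higher (1.33), each with an adjusted limma p of 0.045. Within the nonoptimal reporter alone windows 27, 30 and 44 had not passed (log2 -0.010, 0.55 and -0.79). Without pair 1 or pair 2 of both reporters none of the 57 windows passed (limma adjusted p of the 5 from 0.11 to 0.28 and from 0.13 to 0.26, with 10 windows at an unadjusted p under 0.05 each time), and without pair 3 windows 25 and 32 did (0.036 and 0.014). The directions held throughout.

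The likeness of the profiles followed the same division. Over the 27 FLuc windows, Spearman's rho of the footprint-to-RNA ratio between a nonoptimal and an optimal pair was -0.016 to 0.37, against 0.42 to 0.76 among nonoptimal pairs. Over the 27 full SM and GFP windows it was 0.51 to 0.85 between reporters and 0.57 to 0.82 among nonoptimal pairs. RNA shares behaved alike, with 0.20 to 0.42 between reporters in FLuc and 0.74 to 0.88 in SM and GFP. Of the 14 windows with lower footprints in the nonoptimal reporter, 10 were also lower in the optimal one, and of the 7 higher windows 6 were also higher. Window 25 was the exception, lower in the optimal reporter. The optimal fit called 34 of 57 windows (59.6%), 22 of them lower (38.6%) and 12 higher (21.1%).

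**Figure D5:**
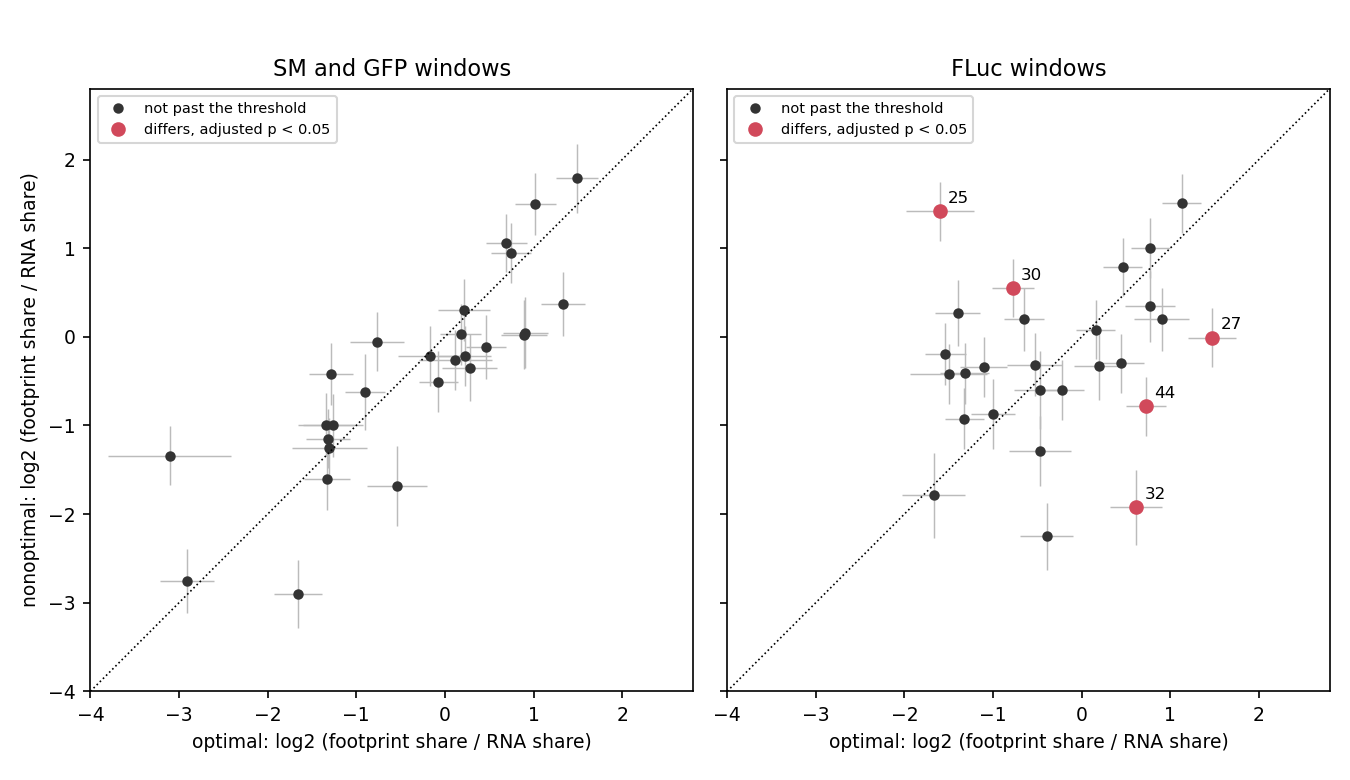
Mean log2 ratio of footprint share to RNA share in the nonoptimal (vertical) against the optimal reporter (horizontal), 1 dot per full window with limma SE bars; left SM and GFP, right FLuc. SM and GFP windows follow the dotted line of equality more closely than FLuc windows, though window 54 of GFP lies 1.76 above it. FLuc windows scatter, and the 5 that differ (red, by window number) lie off the line.

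Footprint quality was read by segment, since fragments from translating ribosomes tend to keep the step of the codon. In the nonoptimal libraries 75.3% ± 5.70 (SD, n = 3) of 5′ ends in SM, 67.1% ± 5.15 in FLuc and 73.6% ± 6.76 in GFP fell on 1 of the 3 codon positions. FLuc was below SM in each library, at 61.5% against 68.8%, 71.6% against 78.3%, and 68.1% against 78.9%. In the optimal libraries FLuc reached 77.3% ± 5.01 (SD, n = 3). Mean lengths were 28.2 nt in SM, 28.3 nt in FLuc and 28.3 nt in GFP. These shares were not tested, and their part in the window results was not tested.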

How the data were processed

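The authors deposited, for each library, alignments to the plasmid maps (start, end, strand, read name) and a list of 27 regions on 3 maps. The submitters' processing notes name UMI-tools, Bowtie 1.2.2, SAMtools 1.12, STAR 2.6.0a, Salmon 1.6.0 and bedtools, with no role given. Which program aligned the reads is not given in the sources used here. Positions refer to the plasmid maps, not to a genome, and the sequences of the plasmids were not analysed here.

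Each alignment was counted once. Footprints (sense, 27 to 30 nt) were placed at their 5′ end plus 12 nt and RNA-seq alignments (151 nt, both strands) at their midpoint. A window's share was its count plus 0.5 per 20 codons, over the frame total with the same addition. The percentages printed and the segments carry no addition. Paired log2 ratios were tested with limma 3.58.1 (R 4.3.3, empirical Bayes, Benjamini-Hochberg over all 57 windows), and single values with exact permutation tests. The calculation was tested on simulated data whose spread between libraries was set beforehand, not taken from these libraries. Its error rates there need not hold here. SE is over 3 pairs, and for windows limma's moderated SE. No scaling by Renilla entered.

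Pairing follows the series' text, which calls the RNA-seq paired. Deviations of same-numbered libraries from their group means correlated at -0.070, -0.12 and -0.13 over windows, so the numbers carried no shared window pattern.

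Windows named with values were the first, the last full and the remaining one, those at segment borders, the 6 highest and 6 lowest ratios, and calls by size (at most 20). Window 2, the 21st call, those windows that differed between reporters, and the tables on fragment lengths and profile likeness were added after their values were seen. The segments, windows and tests were chosen with earlier results of these data known. In the frame, 0 reads also aligned to the Renilla plasmid. Counting limits cover counting error only. The alternatives are listed with their effect in the closing section.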

Additional observations from a re-analysis of the deposited data

Results flagged for a closer look

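In 5 windows of FLuc the log2 footprint-to-RNA ratio of the nonoptimal reporter differed from that of the optimal one by limma's interaction test: 3.02 in window 25, -1.48 in window 27, 1.33 in window 30, -2.54 in window 32 and -1.51 in window 44. Over the alternatives the difference in window 25 ranged from 2.49 to 3.58, with adjusted limma p from 0.00061 to 0.13. It passed in 15 of 17 settings. Window 27 passed in 10 of 17 settings (adjusted limma p up to 0.21), window 30 in 11 of 17 (up to 0.26), window 32 in 11 of 16 (up to 0.28) and window 44 in 11 of 17 (up to 0.23).

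Beside the alignments used in the comparisons, 31 sense footprints of 27 to 30 nt lay in the 100 nt before the frame (12, 14 and 5 in the 3 nonoptimal libraries), and 0 lay in the 51 nt after it. Antisense alignments of that length within the frame numbered 8 in all (3, 4 and 1 in the 3 libraries), against 2452 sense footprints. Whether either count stands above background was not tested.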

How the results depend on the processing

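Of the recomputed main results, 178 kept their direction and side of the threshold, or a count within 1.5 times, 21 counts moved further and 11 signs reversed. Part of the 178 was fixed in advance. The exact p cannot fall below 0.25 (paired) or 0.1 (3 against 3), so for single values only the sign could change. Leaving out reads on both plasmids (0 in the frame) could change nothing, and the unpaired setting could not move a single value. Directions for SM, GFP, window 1, the mean codon and the unevenness held under every alternative, and no exact test of 3 pairs can fall below 0.25. Higher windows, 7 as reported, numbered 4 with RNA placed by the 5′ end of the transcript-strand mate, 0 with 28 to 29 nt footprints (5 at an unadjusted limma p under 0.05, and 3 lower after adjustment) and 2 with windows of 40 codons (4 lower). Leaving out a pair gave 1 to 4. Lower windows, 14 as reported, numbered 9 with footprints placed at the 5′ end itself, 9 with a pseudocount of 0.1 and 22 with windows of 10 codons, and 8 to 15 without a pair. Windows that differed between reporters, 5 as reported, numbered 1 with the 5′ end itself, 1 with 28 to 29 nt, 2 and 8 with pseudocounts of 0.1 and 2, 9 and 1 with windows of 10 and 40 codons, and 0 to 2 without a pair (10 at an unadjusted limma p under 0.05 where 0). With no replicate block (unpaired) 8 windows were higher, 15 lower and 7 differed between reporters, and 20 of the 21 calls remained (window 22 did not), so the pairing changed no count by 1.5 times.

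Signs reversed in the following cases. With all footprint lengths the FLuc ratio was -0.050, its difference between reporters -0.085 (-0.043 with 28 to 29 nt) and the difference in shift -3.34 codons. Without 25 codons at each end these were 0.10, 0.072 and 32.1 codons. Leaving out a pair gave -0.013 to 0.035 for the FLuc ratio, -0.016 to 0.036 for its difference between reporters, -5.44 to 23.9 codons for the difference in shift, and -12.2 to 1.2 codons for the mean codon in SM. The mean codon was 20.9 later in SM without 25 codons at each end, and -5.64 in FLuc with RNA 5′ ends. Of single windows, window 3 was 1.76 with all lengths, window 30 was -0.16 with RNA 5′ ends and window 51 was 0.18 with the 5′ end itself. Window 27, -0.010 as reported, was 0.25 at 15 nt, 0.021 at the 5′ end, 0.0040 with all lengths, 0.25 with 28 to 29 nt, 0.079 without the ends, 0.058 with a pseudocount of 2, and -0.15 to 0.096 without a pair, with 0.020 without pair 3. The cause was not tested in any case. The 28 to 29 nt limit also leaves fewer footprints, and the part this played was not tested either.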
